A study of Xenopus tropicalis with 9 samples.

Results

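The genes of the Notch signalling pathway were examined in RNA-seq libraries of Xenopus tropicalis embryos. Members were picked by gene name, with earlier results of these data known. They are the Notch receptors, the Delta and Jagged ligands, named modulators and nuclear partners of the receptor, and the Hes and Hey genes. The deposited table lists 33 of them among 23633 genes. Of the names sought, 2 (mfng and nrarp) have no row and were not analysed here. Of the 33 members, 5 encode ligands, 3 receptors, 5 modulators, 4 nuclear partners and 16 Hes or Hey repressors. The homeobox gene hesx1 is no member despite its name.

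All 9 libraries were made from poly(A) RNA of whole embryos of the Nigerian strain at stage 14, the early neurula. There were 3 libraries in each of 3 groups. Water was injected into control embryos. Fgf4 overexpressing embryos received 5 pg of a plasmid carrying fgf4, which encodes a secreted fibroblast growth factor, behind the Cska promoter. Cic knockdown embryos received 1 ng of mRNA for each of a forward and a reverse TALEN. These engineered nucleases together cut cic, which encodes the HMG-box repressor Capicua, in the exon for its DNA binding domain. The injected embryos are mosaic founders that carry many different lesions, and the deposited level of cic RNA does not measure them. It was 14.7, 14.0 and 13.4 TPM in control replicates 1, 2 and 3 and 14.7, 13.8 and 11.8 TPM in Cic knockdown embryos. Replicate numbers come from the labels, which do not say what the libraries of a number share, and all values below are given in the order of replicates 1, 2 and 3.

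Notch signalling passes between neighbouring cells. A Delta or Jagged ligand on one cell binds a Notch receptor on the next, the receptor is cleaved, and its intracellular part enters the nucleus, where it joins the DNA-binding protein Rbpj and a Mastermind coactivator. Genes of the Hes and Hey families, basic helix-loop-helix repressors, are its best known targets, although several are also expressed without it. In the neural plate of the frog the pathway limits how many cells become primary neurons, and in the presomitic mesoderm it takes part in the clock that spaces the somites.

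Levels are in TPM, a transcript abundance per library that is also per transcript length, so that genes can be compared within a library. Fold changes are on the log2(TPM + 0.5) scale, which understates the change of low genes. They come from limma fitted to all genes with condition and replicate number as factors. A gene was called at an unadjusted p of at most 0.01 (the p limit) together with a fold change at or below 0.571, or at or above its reciprocal (the fold limit). Printed p values come from limma, adjusted by the Benjamini-Hochberg procedure across the genes tested. Every call of the fit to all 9 libraries had an adjusted p above 0.05. A gene needed a mean of 1.5 TPM in a group of the comparison to be tested, which 29 members passed. The ligands dll4 and jag2, the repressor hey2 and the coactivator maml2 did not pass. In no library was any of these 4 above 1.23 TPM, and maml2 was listed at 0 in 8 of 9 libraries. In whole embryos, fewer cells of a type and less RNA per cell cannot be told apart.

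The Fgf4 replicate 1 library stands apart. The fgf4 level was 3.23, 4.07 and 0.953 TPM in control embryos and 1692, 168 and 95.4 TPM in Fgf4 overexpressing embryos. The same library was the highest of all 9 for 10 of the 29 members (34.5%), against 15.9% of all genes fitted. For dlc, dll1, notch1 and hes6.1 the log2 fold changes with Fgf4 are also given without this library. So are the differences between the treated groups that had an unadjusted p under 0.05. Not every other Fgf4 result is given this way. No gene in the table had an adjusted p of at most 0.05 in any comparison of groups by limma. At an unadjusted p under 0.05 there were 1784 genes for Fgf4 overexpression, 2335 for Cic knockdown and 1843 between the treated groups.

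The highest level among the members was that of hes6.1, a copy of the gene whose mouse counterpart Hes6 holds back Hes1, at 283 to 1050.0 TPM. It was followed by hes4, known in frogs as hairy2, at 189.9 to 443 TPM. The Delta ligands dlc and dll1, hes1, hes8, hes7.2 and hes9.1 lay between 35.3 and 389.8 TPM. Receptors lay lower, with notch1 and notch3 at 22.8 to 125 TPM and notch2 at 2.43 to 15.8 TPM. At the low end hes2 spanned 0.705 to 14.1 TPM and maml3 1.22 to 3.58 TPM. Together the members made up between 0.167% and 0.296% of a library's total.

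**Figure D1:**
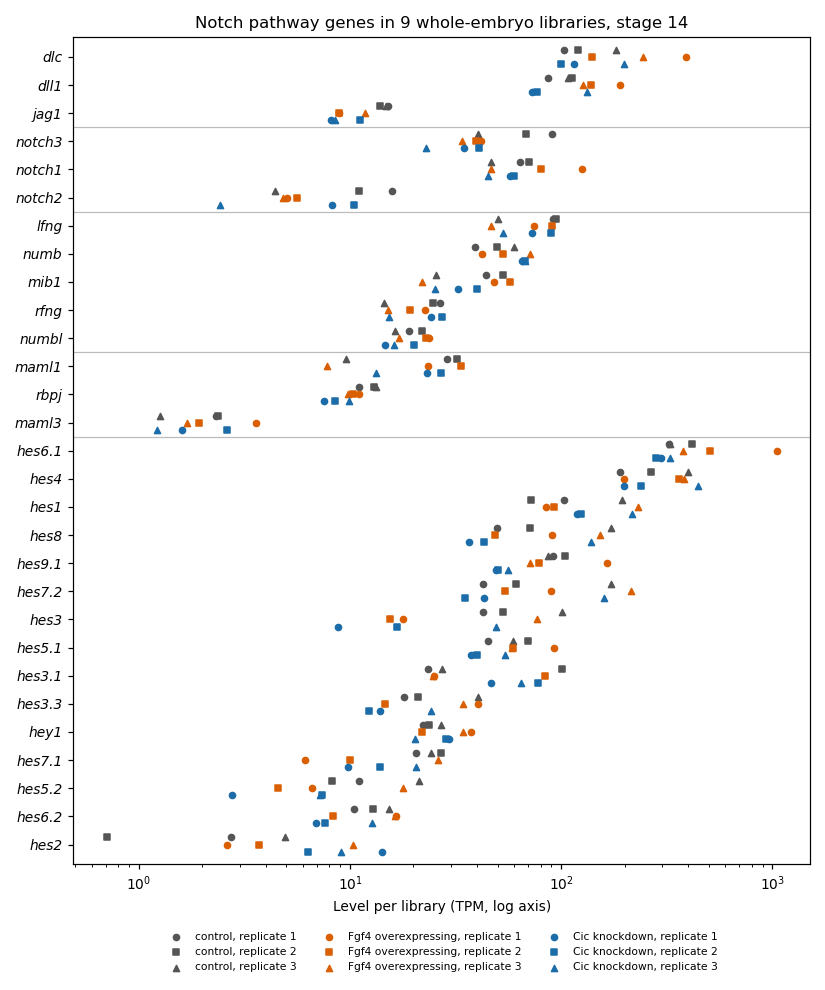
Level of the 29 tested Notch pathway genes in each library, in TPM on a log axis, grouped into ligands, receptors, modulators, nuclear partners and Hes or Hey genes; colour gives the group and shape the replicate. hes6.1 reached 1050.0 TPM in Fgf4 replicate 1, and the control and Cic knockdown values of jag1, numb and rbpj did not overlap.

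Ligands are taken first. The level of dlc, a Delta ligand whose zebrafish counterpart cycles in the presomitic mesoderm, was 104, 120.1 and 182 TPM in control embryos. It was 389.8, 139.8 and 244 TPM in Fgf4 overexpressing embryos and 115, 100.4 and 198 TPM in Cic knockdown embryos. Each Fgf4 library was above the control of its number, but the groups overlapped and the excess was largest in replicate 1. The log2 fold change was 0.85 (SE 0.32) and missed the p limit (limma adjusted p = 0.351). Without the Fgf4 replicate 1 library it was 0.36. In Cic knockdown the log2 fold change of dlc was 0.00 (SE 0.32).

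A similar order was found for dll1, the ligand of lateral inhibition among primary neurons. It stood at 87.2, 113 and 107 TPM in control embryos, at 190.3, 139 and 127 TPM in Fgf4 overexpressing embryos and at 73.1, 77.3 and 133 TPM in Cic knockdown embryos. All 3 Fgf4 libraries lay above all 3 control libraries. For Fgf4 the log2 fold change of 0.56 (SE 0.27) did not pass (limma adjusted p = 0.419) and was 0.25 without the Fgf4 replicate 1 library. In Cic knockdown it was -0.16 (SE 0.27, limma adjusted p = 0.783).

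The Jagged ligand jag1 had lower values in every treated library than in any control library. It was measured at 15.1, 13.8 and 14.8 TPM in control embryos, at 8.91, 8.84 and 11.8 TPM with Fgf4 and at 8.14, 11.1 and 8.54 TPM with Cic knockdown. Its log2 fold change was -0.55 (SE 0.20) for Fgf4 (limma adjusted p = 0.331) and -0.64 (SE 0.20) for Cic knockdown (limma adjusted p = 0.182). Neither reached the limits of a call. For Cic knockdown jag1 was called in 1 of 12 fits that each left out a library or a replicate number (log2 fold changes -0.82 to -0.52 over the 12). Both comparisons share their control libraries, so the values are not independent.

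Summed over the ligands, control libraries held 208, 248 and 306 TPM, Fgf4 libraries 590.2, 288 and 385 TPM and Cic knockdown libraries 198, 190.4 and 341 TPM. The share of jag1 in that sum was 7.26%, 5.58% and 4.84% in control embryos and 1.51%, 3.06% and 3.07% in Fgf4 overexpressing embryos. Those groups did not overlap. In Cic knockdown embryos the share was 4.10%, 5.83% and 2.51%, within reach of control. Shares were chosen after the values were seen and are given as a description.

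Among the receptors, notch3 fell in Cic knockdown embryos. It was at 90.3, 68.4 and 40.6 TPM in control embryos, 41.7, 39.6 and 34.0 TPM with Fgf4 and 34.7, 40.7 and 22.8 TPM with Cic knockdown. In each replicate number the treated libraries were below their control, although the lowest control library, replicate 3, overlapped with both treated groups. For Cic knockdown the log2 fold change was -0.98 (SE 0.20), a fold change of 0.509, with a limma adjusted p = 0.0878 (0.051 to 0.648 over 20 alternative fits). The call was lost without the replicate block (limma adjusted p = 0.469) and without the control replicate 1 library, where the log2 fold change of -0.78 fell short of the fold limit. It was also lost without all libraries of replicate 1 (log2 fold change -0.78), and with a stricter fold limit of 2.24. For Fgf4 the log2 fold change of notch3 was -0.71 (SE 0.20, limma adjusted p = 0.3). It met the p limit, but its fold change of 0.610 missed the fold limit. Of 12 fits that each left out a library or a replicate number, 3 called it. Those were without control replicate 3 (log2 fold change -0.87), without Fgf4 replicate 3 (log2 fold change -0.90) and without replicate 3 (-0.94). The smallest fall over the 12 was -0.52, without all libraries of replicate 1.

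The other receptors did not pass the limits. For notch1 the control level was 63.9, 70.2 and 46.8 TPM. It was 125, 80.7 and 46.8 TPM with Fgf4 and 57.4, 60.2 and 45.2 TPM with Cic knockdown. The Fgf4 library of replicate 1 was well above its control, while that of replicate 3 equalled it. The log2 fold changes were 0.39 (SE 0.22, limma adjusted p = 0.478) and -0.14 (SE 0.22, limma adjusted p = 0.768), and the former was 0.10 without the Fgf4 replicate 1 library.

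For notch2 the levels were 15.8, 11.0 and 4.42 TPM in control embryos, 5.05, 5.63 and 4.81 TPM with Fgf4 and 8.19, 10.4 and 2.43 TPM with Cic knockdown. The groups overlapped, since control replicate 3 was as low as the treated libraries. The log2 fold changes were -0.78 (SE 0.36, limma adjusted p = 0.407) and -0.58 (SE 0.36, limma adjusted p = 0.449). Without the Fgf4 replicate 3 library, notch2 passed the limits for Fgf4 (log2 fold change -1.27). It passed in 2 of 12 fits that each left out a library or a replicate number (-1.27 to -0.40 over the 12).

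**Figure D2:**
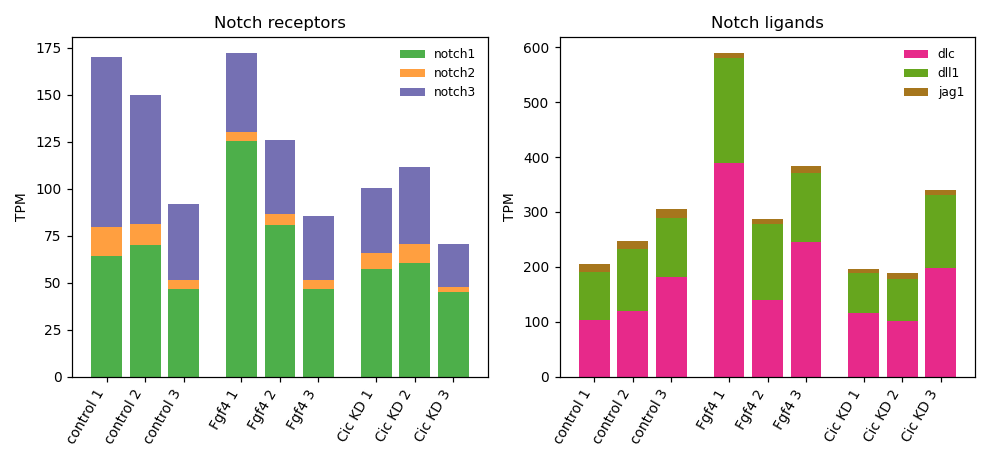
Summed TPM of the receptors (left, notch1, notch2 and notch3) and of the ligands with a mean of at least 1.5 TPM (right, dlc, dll1 and jag1) as stacked bars, 1 bar per library, both axes from 0. notch3 made up 44.2% to 53.1% of the receptor sum in control libraries and 24.3% to 39.7% in the treated ones, and the tallest ligand bar is Fgf4 replicate 1.

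The makeup of the receptor pool differed between the groups as a description, with no test, since it was chosen after the values were seen. The share of notch3 in receptor TPM was 53.1%, 45.7% and 44.2% in control embryos. It was 24.3%, 31.5% and 39.7% with Fgf4 and 34.6%, 36.5% and 32.4% with Cic knockdown, so that every treated library lay below every control library. The share of notch1 was 37.6%, 46.9% and 51.0% in control embryos, 72.8%, 64.1% and 54.6% with Fgf4 and 57.2%, 54.1% and 64.2% with Cic knockdown. The receptor sum itself was 170.0, 149.7 and 91.8 TPM in control embryos, 172, 126 and 85.6 TPM with Fgf4 and 100.2, 111 and 70.5 TPM with Cic knockdown. It was lowest in replicate 3 in each group.

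No modulator was called in either comparison. The Fringe enzymes, which add sugars to the receptor and so tune its response to the ligands, varied mainly with replicate number. The level of lfng was 91.1, 94.3 and 50.3 TPM in control embryos, 74.5, 90.6 and 46.7 TPM with Fgf4 and 73.1, 89.6 and 53.1 TPM with Cic knockdown. That of rfng was 26.8, 24.8 and 14.5 TPM, 22.7, 19.4 and 15.1 TPM, and 24.2, 27.4 and 15.4 TPM in the same order. Replicate 3 was the lowest of each group for both enzymes, and their log2 fold changes lay between -0.17 and 0.03.

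The ubiquitin ligase mib1, which the sending cell needs to take up its ligand, was at 44.0, 52.9 and 25.7 TPM in control embryos. It was at 48.1, 57.3 and 21.9 TPM with Fgf4 and 32.6, 40.1 and 25.2 TPM with Cic knockdown. Its groups overlapped. The log2 fold changes were 0.01 (SE 0.18, limma adjusted p = 0.99) for Fgf4 and -0.28 (SE 0.18, limma adjusted p = 0.44) for Cic knockdown.

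The adaptor numb, an antagonist of Notch that is inherited unequally in dividing neural precursors of the fly, was the modulator with the widest separation. Its level was 39.2, 49.7 and 59.6 TPM in control embryos, 42.3, 53.1 and 71.1 TPM with Fgf4 and 65.1, 67.3 and 67.3 TPM with Cic knockdown. All Cic knockdown libraries were above all control libraries. The log2 fold change of 0.44 (SE 0.16) in Cic knockdown embryos did not reach the limits (limma adjusted p = 0.236). The related gene numbl was at 19.0, 21.9 and 16.3 TPM in control embryos, 23.6, 22.9 and 17 TPM with Fgf4 and 14.7, 20.1 and 16.2 TPM with Cic knockdown. Its log2 fold changes were 0.14 and -0.16, and its groups overlapped.

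Of the nuclear partners, rbpj had its lowest values in Cic knockdown embryos. It stood at 11.0, 13.0 and 13.3 TPM in control embryos, 11.1, 10.3 and 9.76 TPM with Fgf4 and 7.56, 8.53 and 9.88 TPM with Cic knockdown. Cic knockdown and control libraries did not overlap. Its log2 fold change of -0.50 (SE 0.17) did not reach the limits (limma adjusted p = 0.218). The Mastermind gene maml1 was at 28.8, 32.2 and 9.53 TPM in control embryos, 23.4, 33.6 and 7.82 TPM with Fgf4 and 23.1, 27.0 and 13.2 TPM with Cic knockdown. It followed the replicate number rather than the group, and its log2 fold changes were -0.17 and -0.04. The low gene maml3 was at 2.31, 2.38 and 1.26 TPM, 3.58, 1.92 and 1.69 TPM, and 1.60, 2.62 and 1.22 TPM, with overlapping groups and log2 fold changes of 0.20 and -0.11.

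**Figure D3:**
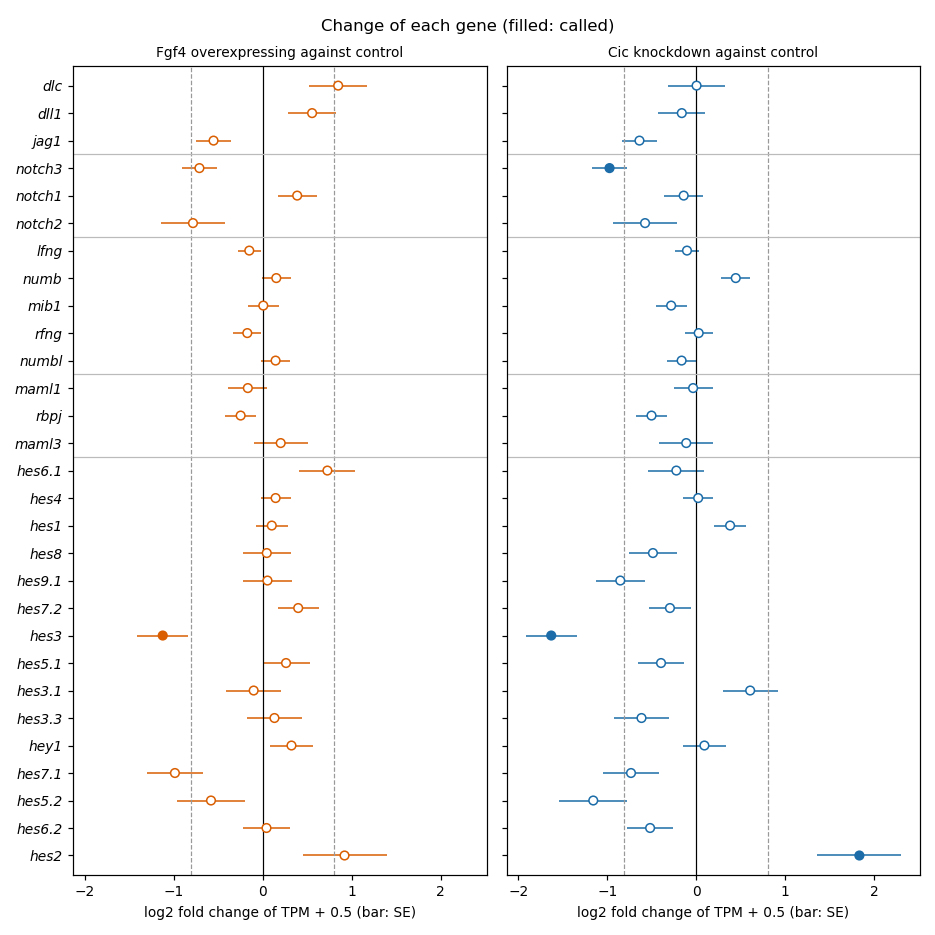
Log2 fold change of TPM + 0.5 for each of the 29 tested genes in Fgf4 overexpressing (left) and Cic knockdown embryos (right) against control, with the standard error as a bar, the fold limits as dashed lines and called genes filled. hes3 was called in both panels, and notch3 and hes2 in Cic knockdown embryos.

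The Hes family held the remaining calls, and hes3 fell in both treated groups. The mouse counterpart of hes3 helps to maintain the organiser at the border of midbrain and hindbrain. Its level was 42.7, 53.0 and 102 TPM in control embryos, 17.9, 15.4 and 77.2 TPM with Fgf4 and 8.82, 16.7 and 48.9 TPM with Cic knockdown. In each group replicate 3 was the highest, so the groups overlapped, but each treated library was below the control of its number. The log2 ratios within replicate numbers were -1.23, -1.75 and -0.39 for Fgf4 and -2.21, -1.64 and -1.05 for Cic knockdown.

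For Fgf4 the fitted log2 fold change of hes3 was -1.12 (SE 0.29), a fold change of 0.459 (limma adjusted p = 0.3, and 0.077 to 1.00 over 20 alternative fits). It was not called without the replicate block (limma adjusted p = 1.00). It was also lost when the control replicate 1 or 2, the Fgf4 replicate 1 or 2, or all libraries of replicate 1 or 2 were left out, with log2 fold changes of -1.22 to -0.81 in those fits, and with the fold limit of 2.24. For Cic knockdown the log2 fold change was -1.63 (SE 0.29), a fold change of 0.323 (limma adjusted p = 0.0765, and 0.0383 to 0.755 over 20 alternative fits). The call ended without the replicate block (limma adjusted p = 0.755) and without replicate 1, where the log2 fold change was -1.34.

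The opposite direction was seen for hes2, a low gene known in Xenopus for its part in forming glia of the retina. It rose in Cic knockdown embryos. Its level was 2.72, 0.705 and 4.92 TPM in control embryos, 2.62, 3.70 and 10.4 TPM with Fgf4 and 14.1, 6.32 and 9.06 TPM with Cic knockdown. All Cic knockdown libraries were above all control libraries. Its log2 fold change was 1.83 (SE 0.47), a fold change of 3.57 (limma adjusted p = 0.136, and 0.0681 to 0.625 over 20 alternative fits). Without the replicate block the call was lost (limma adjusted p = 0.477). It was also lost when any single control library, Cic knockdown replicate 1 or 2, or replicate 1 or 2 as a whole was left out, with log2 fold changes of 1.42 to 2.07. With Fgf4 the log2 fold change of hes2 was 0.92 (SE 0.47, limma adjusted p = 0.443).

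**Figure D4:**
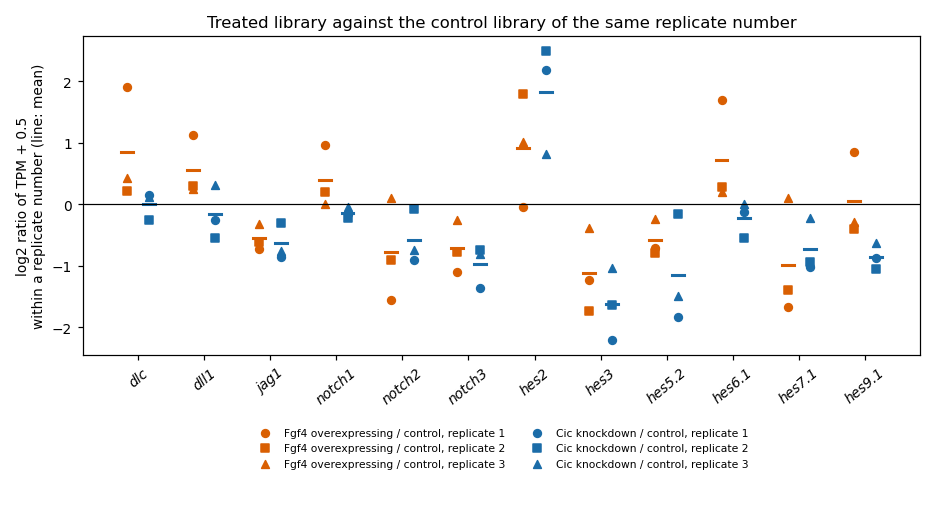
Log2 ratio of TPM + 0.5 of each treated library to the control library of its replicate number for 12 genes, with the mean as a short line; orange stands for Fgf4 overexpressing and blue for Cic knockdown embryos, and shapes for replicates. All 6 ratios of jag1, notch3, hes3 and hes5.2 lie below 0, while replicate 1 carries the high Fgf4 ratios of dlc, dll1 and hes6.1.

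The Hes7 type is known in the mouse as a core gene of the segmentation clock. Here its copy hes7.1 was at 20.5, 27.1 and 24.2 TPM in control embryos, 6.12, 9.98 and 26 TPM with Fgf4 and 9.82, 13.8 and 20.6 TPM with Cic knockdown. The treated libraries of replicates 1 and 2 were below all controls, while those of replicate 3 were close to them. For Fgf4 the log2 fold change was -0.99 (SE 0.32) and missed the p limit (limma adjusted p = 0.32). It was called without replicate 3 (-1.53), without the control or the Fgf4 library of that number (-1.39 and -1.41) and with median-of-ratios scaling (-1.01). Of 12 fits that each left out a library or a replicate number, 3 called it, and the smallest fall was -0.65, without replicate 1. For Cic knockdown the log2 fold change was -0.73 (SE 0.32, limma adjusted p = 0.296). There 2 of the 12 fits called hes7.1, without control replicate 3 (-1.13) and without replicate 3 (-0.99). The smallest fall was -0.49, without control replicate 1.

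The other copy, hes7.2, did not show the same order. It was at 42.9, 61.4 and 172 TPM in control embryos, 89.7, 54.0 and 215 TPM with Fgf4 and 43.1, 35.3 and 159.9 TPM with Cic knockdown. Its level was highest in replicate 3 in each group, with log2 fold changes of 0.40 and -0.30. The former was 0.07 without all libraries of replicate 1. The ratio of hes7.2 to hes7.1 was 2.09, 2.26 and 7.1 in control embryos, 14.6, 5.41 and 8.28 with Fgf4 and 4.39, 2.55 and 7.78 with Cic knockdown.

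The most abundant member, hes6.1, was at 324, 415 and 329 TPM in control embryos, 1050.0, 505 and 379 TPM with Fgf4 and 298, 283 and 329 TPM with Cic knockdown. The Fgf4 library was above the control of its number in all 3 replicates, by most in replicate 1. For Fgf4 the log2 fold change was 0.73 (SE 0.32, limma adjusted p = 0.383), and 0.27 without the Fgf4 replicate 1 library. In Cic knockdown it was -0.22 (SE 0.32). Its neighbour hes6.2 spanned 6.87 to 16.6 TPM, with log2 fold changes of 0.04 and -0.52.

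The Hes5 type, a principal Notch target in neural progenitors of the mouse, is present under that name as hes5.1 and hes5.2. RefSeq also lists hes9.1 as hes5.7 and hes3.1 as hes5.10. The level of hes5.1 was 45.2, 69.5 and 59.2 TPM in control embryos, 92.4, 59.3 and 58.8 TPM with Fgf4 and 37.4, 39.8 and 54.3 TPM with Cic knockdown. Both treated groups overlapped with control, while the Cic knockdown libraries were all below the Fgf4 libraries. The log2 fold changes against control were 0.26 (SE 0.26) and -0.40 (SE 0.26). The former was -0.12 without all libraries of replicate 1. The lower copy, hes5.2, spanned 8.25 to 21.3 TPM in control, 4.55 to 17.9 TPM in Fgf4 and 2.75 to 7.37 TPM in Cic knockdown libraries. Control and Cic knockdown libraries did not overlap. Each Fgf4 library was below the control of its number, with a log2 fold change of hes5.2 of -0.58 (SE 0.38, limma adjusted p = 0.542). Its log2 fold change in Cic knockdown was -1.16 (SE 0.38) and missed the p limit (limma adjusted p = 0.203). Of 12 fits that each left out a library or a replicate number, 2 called it. Those were without the Cic knockdown replicate 2 library (log2 fold change -1.71) and without all libraries of replicate 2 (-1.66). The smallest fall over the 12 was -0.82, without replicate 1.

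The family member hes9.1 was at 91.3, 105 and 86.7 TPM in control embryos, 165, 79.0 and 71.1 TPM with Fgf4 and 49.3, 50.4 and 55.8 TPM with Cic knockdown. All Cic knockdown libraries were below all others. In Cic knockdown the log2 fold change of -0.85 (SE 0.28) missed the p limit (limma adjusted p = 0.2, and 0.0423 to 0.742 over 20 alternative fits). In a fit of only the 6 control and Cic knockdown libraries it was called. It was also called in 2 of 12 fits that each left out a library or a replicate number (log2 fold changes -1.05 to -0.64 over the 12). With Fgf4 the log2 fold change was 0.05 (SE 0.28).

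The frog hairy genes hes1 and hes4 and the gene hes8 differed more between replicate numbers than between groups. The level of hes1 was 104, 71.9 and 195 TPM in control embryos, 84.6, 92.2 and 231 TPM with Fgf4 and 119, 125 and 216 TPM with Cic knockdown. For hes4 it was 189.9, 266 and 399.8 TPM, 198, 363 and 381 TPM, and 199.7, 239 and 443 TPM in that order. For hes8 it was 49.9, 70.9 and 172 TPM, 90.6, 48.5 and 152 TPM, and 36.6, 43.1 and 139 TPM. Replicate 3 was the highest library of its group for all 3 genes. Their log2 fold changes were 0.10, 0.15 and 0.05 for Fgf4 and 0.38, 0.02 and -0.49 for Cic knockdown, all with overlapping groups.

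The remaining members of the 12 highest Hes or Hey genes are hes3.1, hes3.3 and hey1. The level of hes3.1 was 23.3, 102 and 27.4 TPM in control embryos, 25, 84.4 and 24.8 TPM with Fgf4 and 46.4, 77.6 and 64.8 TPM with Cic knockdown. Replicate 2 stood out in control and Fgf4 embryos. In Cic knockdown the log2 fold change of hes3.1 was 0.61 (SE 0.31, limma adjusted p = 0.358). It was called without the Cic knockdown replicate 2 library (log2 fold change 1.06) and without all libraries of replicate 2 (1.1), and was 0.29 without the Cic knockdown replicate 3 library. For hes3.3 the level was 18.0, 21.1 and 40.5 TPM, 40.4, 14.7 and 34.3 TPM, and 13.8, 12.3 and 24.2 TPM. Each Cic knockdown library was below the control and the Fgf4 library of its number, although the groups overlapped. The log2 fold change of hes3.3 in Cic knockdown was -0.62 (SE 0.31, limma adjusted p = 0.347). The Hey repressor hey1 was at 22.3, 23.6 and 27.0 TPM, 37.6, 21.9 and 34.1 TPM, and 29.6, 28.6 and 20.4 TPM. Its groups overlapped, with a log2 fold change of 0.09 in Cic knockdown.

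By counts, 0 of 29 tested members rose and 1 fell (hes3) in Fgf4 overexpressing embryos, where 1.4% of all genes tested rose and 1.16% fell. An unadjusted p under 0.05 was found for 5 members (17.2%) against 13.3% of all genes, and non-overlapping groups for 2 (dll1 and jag1, 6.9%) against 6.55%. These shares were near the background. All 3 Fgf4 libraries were below their controls for 5 members (17.2%, against 19.5% of all genes) and above them for 5 others (17.2%, against 20.4%). The log2 fold change was lower than 0 for 11 of 29 (37.9%) against 48.3% of all genes, and its median was 0.05 for the members and 0.01 for all genes tested. The largest of the 3 ratios to control, in absolute size, was that of replicate 1 for 19 of 29 members (65.5%), against 44.7% of all genes.

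In Cic knockdown embryos 1 of 29 members rose (hes2) and 2 fell (hes3 and notch3), where 3.99% of all genes tested rose and 0.75% fell. An unadjusted p under 0.05 was found for 8 members (27.6%) against 17.2% of all genes, and non-overlapping groups for 6 (20.7%) against 14.3%. The log2 fold change was below 0 for 21 of 29 members (72.4%), against 52.4% of all genes. For 16 of 29 (55.2%) the Cic knockdown library was below its control in all 3 replicate numbers, against 25.4% of all genes, and above it for 3 (hes1, hes2 and numb, 10.3%), against 23.4%. The members' median log2 fold change was -0.22, and that of all genes -0.02. By role, all 3 receptors, all 3 nuclear partners tested, 2 of 3 ligands, 3 of 5 modulators and 10 of 15 Hes or Hey genes were below 0. This is a description, and some values were near 0, such as maml1 at -0.04 and notch1 at -0.14.

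The treated groups were also set against each other. No member was called in Cic knockdown against Fgf4 overexpressing embryos, where 1.76% of all genes were called higher and 0.375% lower. At an unadjusted p under 0.05 there were 8 members (27.6%), against 13.5% of all genes, and all 8 were lower in Cic knockdown embryos. They were dlc, dll1, notch1, hes3.3, hes5.1, hes6.1, hes7.2 and hes9.1, with log2 differences of -0.95 to -0.53 and limma adjusted p values of 0.331 to 0.365. The groups did not overlap for hes5.1, hes6.1 and hes9.1 (10.3% of members, against 6.47% of all genes). The fitted difference was below 0 for 20 of 29 members (69%, against 52.2% of all genes). All 3 Cic knockdown libraries were below the Fgf4 library of their number for 10 members (34.5%, against 13.9%) and above it for 1 (rfng, 3.45%, against 13.2%). Without the Fgf4 replicate 1 library the log2 differences of the 8 genes lay between -0.50 and -0.24. Without the Fgf4 replicate 3 library, dll1, hes6.1 and hes9.1 were called lower. Over all 12 leave-out fits dll1 was called in 3 (log2 differences -1.11 to -0.39 over the 12), and hes6.1 and hes9.1 in 1 each. Of 12 fits that each left out a library or a replicate number, 2 called hes3.1 higher in Cic knockdown embryos. Its log2 differences over those 12 fits were 0.38 to 1.16. For hes5.2, 2 of the 12 fits called it lower (-1.19 to -0.24 over the 12).

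Replicate number separated many members. By limma's F test over the 3 replicate numbers, 10 of 29 members (34.5%) had a p of at most 0.01, close to the 33.2% of all genes fitted. For hes1, hes3, hes4, hes7.2 and hes8 the mean was highest in replicate 3. The means of hes7.2 were 58.6, 50.2 and 182 TPM (limma F test adjusted p = 0.00215), those of hes8 59.0, 54.2 and 154 TPM and those of hes3 23.1, 28.4 and 75.9 TPM. For lfng, rfng, mib1 and maml1 it was lowest in replicate 3, with maml1 at 25.1, 30.9 and 10.2 TPM (limma F test adjusted p = 0.00354). For hes3.1 it was highest in replicate 2, at 31.6, 87.9 and 39.0 TPM. The labels do not say what the libraries of a replicate number share, and whether they differed in exact age was not tested.

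**Figure D5:**
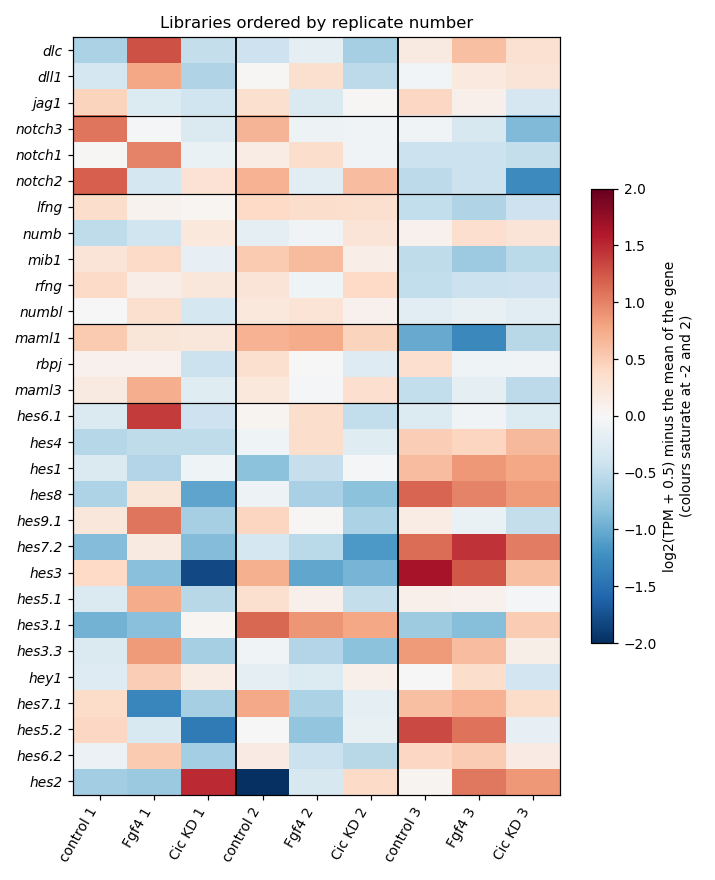
Log2(TPM + 0.5) of each tested gene minus its mean over the 9 libraries, as colour from -2 (blue) to 2 (red), with libraries ordered by replicate number. The 3 libraries of replicate 3 are red for hes8 and hes7.2 and blue for maml1 and mib1, and hes6.1 is reddest in Fgf4 replicate 1.

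Several Hes genes sit close together in the genome. In the RefSeq order of assembly UCB_Xtro_10.0, 31 of the 33 members could be placed. There hes6.1 and hes6.2 are next to each other, as are hes5.1 and hes5.2. Between hes9.1 and hes3.1 lie 2 genes, between hes3 and hes2 lie 3, and between hes7.1 and hes7.2 lie 5. Genes that are similar in sequence can share reads, and the split between them then depends on how reads were assigned. Sequences were not compared here, and lying near each other does not make genes copies. The nearby genes hes3 and hes2 differed in direction in Cic knockdown embryos, at log2 fold changes of -1.63 and 1.83. Those of hes9.1 and hes3.1, neither of them called, were -0.85 and 0.61. The ratio of hes6.1 to hes6.2 was 30.9, 32.2 and 21.5 in control embryos, 63.4, 61 and 23.1 with Fgf4 and 43.4, 37.3 and 25.8 with Cic knockdown. The ratio of hes5.1 to hes5.2 was 4.08, 8.43 and 2.78 in control embryos, 14.0, 13.0 and 3.28 with Fgf4 and 13.6, 5.40 and 7.49 with Cic knockdown, with no test.

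No gene of the wider pathway was called. A list of further Notch genes (proteases that cleave the receptor, ligases, transcriptional co-repressors and coactivators, and others) had 56 of its 60 names in the table. Of the 48 or 49 tested, 0 passed the limits in each of the 3 comparisons with limma. At an unadjusted p under 0.05 there were 5 of 48 for Fgf4 (10.4%, against 13.3% of all genes), 4 of 49 for Cic knockdown (8.16%, against 17.2%) and 7 of 49 between the treated groups (14.3%, against 13.5%). The median log2 fold change was 0.00 for Fgf4, -0.01 for Cic knockdown and -0.07 between the treated groups.

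Levels of markers of tissues in which Notch acts are given beside these results. Of 13 tested markers of primary neurons, 12 had a log2 fold change below 0 with Fgf4 (92.3%, against 48.3% of all genes, median -0.93, none called). With Cic knockdown all 13 did (against 52.4%, median -0.74), and myt1 fell (log2 fold change -1.12, 7.69% of the list, against 0.75% of all genes). Their summed level was 389.8 to 465 TPM in control, 223 to 442 TPM in Fgf4 and 247 to 381 TPM in Cic knockdown libraries. Of 11 neural plate markers, irx3, sox2 and sox3 fell in Cic knockdown (log2 fold changes -1.05, -1.13 and -1.06, 27.3% of the list against 0.75% of all genes, median of the list -0.64), and none was called with Fgf4 (median -0.44). Their sum was 1302 to 1755 TPM in control, 1056 to 1873 TPM in Fgf4 and 805 to 1499 TPM in Cic knockdown libraries. Of 13 presomitic mesoderm markers, ripply2.2 fell in both (log2 fold changes -0.83 and -0.89, 7.69% of the list against 1.16% and 0.75% of all genes), with medians of 0.12 and -0.32. With Fgf4, 7 of the 13 had a log2 fold change above 0 and 6 below 0, and with Cic knockdown 5 and 8. At an unadjusted p under 0.05 with Fgf4, cyp26a1, mespb, msgn1 and vegt were higher, and ripply2.1 and ripply2.2 lower. The sum of the 13 markers was 906 to 1811 TPM in control, 1570.1 to 2243 TPM in Fgf4 and 806 to 1774 TPM in Cic knockdown libraries. The part of these tissues in the values of the Notch genes was not tested.

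Further lists held more calls. These lists and the tissue lists above were chosen with earlier results of these data known. The oocyte and maternal list was chosen after such genes had been found to go with Cic knockdown, so its share is only a description. Of 26 oocyte and maternal genes tested, 15 rose in Cic knockdown embryos (57.7%, against 3.99% of all genes, log2 fold changes 0.97 to 3.94, median of the list 1.51), and 0 of 24 were called with Fgf4 (median 0.49). Their sum was 776 to 1028 TPM in control, 838 to 1617 TPM in Fgf4 and 1225 to 1787 TPM in Cic knockdown libraries. Of 18 blastula and gastrula genes, 6 rose with Fgf4 (mixl1, sox17b.2 and 4 ventx genes, 33.3% against 1.4% of all genes, median of the list 0.90) and 2 with Cic knockdown (mixl1 and sox17b.2, 11.1% against 3.99%, median 0.72). Their sum was 1016 to 2049 TPM in control, 1909 to 4727 TPM in Fgf4 and 2112 to 3391 TPM in Cic knockdown libraries. Of the multiciliated cell and ionocyte markers, foxn4 and ubp1 fell with Fgf4 (log2 fold changes -1.23 and -2.45, 13.3% against 1.16% of all genes, median of 15 genes -1.10), and none of 16 was called with Cic knockdown (median 0.08). Their part in the results was not tested.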

How the data were processed

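RNA-seq of 9 libraries was examined, 3 each of control, Fgf4 overexpressing and Cic knockdown embryos at stage 14. Per the labels, reads were trimmed with cutadapt, quantified with Salmon and aggregated with sleuth, and the study aligned them to version 9.1 of the genome. The deposited signal is gene-level TPM by its header, but library sums run from 871757 to 1162170, so the authors rescaled it by factors not given in the sources used here. TPM keeps no counts, so the number of reads behind each value is unknown. For the reads per sample the study states only a lower bound.

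The deposited values were taken as log2(TPM + 0.5) and fitted with limma 3.58.1 in R 4.3.3 (lmFit, eBayes with a mean-dependent variance prior, 4 residual degrees of freedom), after steps tested on simulated data. Condition and replicate number were factors over all 9 libraries, since the study models batch and treatment. All 13833 genes with a mean of at least 1.5 TPM in a group were fitted, and 13437, 13598 and 13607 were tested for Fgf4 overexpression, Cic knockdown and their contrast. Tests are two-sided. Replicate numbers come from the labels, which tie them to no batch, and same-numbered libraries deviated together (correlations of 0.38 to 0.79 across genes, mean 0.60), so they pair the libraries. Members and lists were chosen with earlier results of these data known. Values per library are given for every detected ligand, receptor, modulator and nuclear partner, the 12 highest Hes or Hey genes, and every member called, and ranges for the others (hes5.2 and hes6.2, whose ratios to their neighbours were chosen after seeing values). Of other lists, genes called against control are named, except the oocyte and maternal genes and the ventx genes, which are only counted. Calls of the marker lists between the treated groups are not given. Of the presomitic mesoderm list, genes with an unadjusted p under 0.05 with Fgf4 are also named. Ratios and shares were chosen after seeing values.

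Alternatives were no replicate block, other pseudocounts (0.1 and 1), filters (5 TPM or none), scalings (median of ratios or equal totals), limits, a fit of 6 libraries, and fits lacking a single library or replicate number. No sequence or genome of the authors' build was used here.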

Additional observations from a re-analysis of the deposited data

How the results depend on the processing

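Counts of called members depended on the model. Without the replicate block 0 members were called for Fgf4 overexpression and 0 for Cic knockdown, and the same numbers were found at an adjusted p of at most 0.05. With a fold limit of 2.24, which the study's effect size may equal, 0 were called for Fgf4 overexpression and hes2 and hes3 for Cic knockdown. With median-of-ratios scaling 2 were called for Fgf4 overexpression (hes3 and hes7.1). Over 12 fits that each left out a library or a replicate number, the counts ranged from 0 to 4 for Fgf4 overexpression, 1 to 5 for Cic knockdown, 0 to 3 between the treated groups and 1 to 12 for replicate number, where the lowest was without replicate 3. The highest counts were without Fgf4 replicate 3 for both comparisons that use it and without Cic knockdown replicate 2 for Cic knockdown. Among the ligands, receptors and called genes, signs against control turned for dlc, dll1 and notch1 in Cic knockdown. The log2 fold change of dlc was -0.058 with median-of-ratios scaling and -0.298 to 0.226 over the leave-out fits. That of dll1 was -0.476 to 0.0275 and that of notch1 -0.28 to 0.00917. Between the treated groups the leave-out fits also turned jag1 (-0.285 to 0.0944) and notch2 (-0.105 to 0.740). In single alternatives an adjusted p under 0.05 was reached by hes3 and hes9.1 for Cic knockdown (0.0383 and 0.0423, fit of 6 libraries), hes3 also without Fgf4 replicate 2 (0.0407), hes5.2 and hes3.1 for Cic knockdown (0.0255 and 0.0483, without Cic knockdown replicate 2) and hes7.1 for Fgf4 (0.0418, without Fgf4 replicate 3). The cause of these changes was not tested. Both pseudocounts, both filters and equal totals kept each count within 1.5 times its value. With 3 libraries a group and no read counts behind the values, small differences in genes as low as hes2 could not be resolved.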
